A study of Danio rerio with 3 samples.

Results

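The antioxidant and thiol redox genes described here were every row of the deposited expression table whose gene name matched a fixed name pattern. The pattern covered superoxide dismutases, catalase, glutathione peroxidases, peroxiredoxins, thioredoxin and glutaredoxin genes, and glutathione synthesis and reduction. It also covered methionine sulfoxide reductases, haem oxygenases, biliverdin reductases, the quinone reductase nqo1, and keap1 and nfe2l regulators. Selenium proteins and genes whose names begin with g6pc completed it. The pattern allowed for A-type methionine sulfoxide reductases and sulfiredoxin too, but no row of the table matched by those names. It found 58 of the 14428 genes in the table. The pattern itself uses no expression value, but it was set with earlier results of these data known.

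The libraries came from zebrafish embryos at 72 hours post fertilization, described in the labels as wild-type and untreated, that carried both the mpeg1:mCherry and the mpx:EGFP transgenes. The mpeg1 promoter marks macrophages and the mpx promoter marks neutrophils. Embryos carrying both were homogenized and sorted by colour into an mCherry+, an EGFP+ and a double-negative population, the last being all sorted cells with neither colour. Each population gave 1 library, so no value has a replicate error, no p-value is given, and every difference is between 3 libraries.

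Phagocytes make superoxide and hydrogen peroxide with their NADPH oxidase, and cells limit the damage with enzymes that remove peroxides and repair oxidized protein thiols. Superoxide dismutases turn superoxide into hydrogen peroxide, which catalase, glutathione peroxidases and peroxiredoxins reduce. Glutathione reductase and thioredoxin reductase then regenerate the spent thiols with electrons from NADPH. The transcription factor Nrf2 (nfe2l2) drives many of these genes and is held in check by the adaptor Keap1.

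Values are FPKM, which divide fragment counts by transcript length and by library size, as the authors deposited them. FPKM sums were 571639 in the mCherry+, 696949 in the EGFP+ and 356886 in the double-negative library, and read depth was not recovered. Ratios are log2 of (FPKM + 1) in one library over another, which understates differences of low genes. They are given for the 12285 genes, 57 of them members, that reached an FPKM of 1 in some library. The member left out was sod3a, at 0 in mCherry+ and EGFP+ cells and 0.319 in double-negative cells. A gene past 4-fold in a ratio is called higher or lower. The proteasome gene psmd7, active in all cells, had 0 in each library of the table, so a 0 means only that a gene is listed at 0. Among 5361 well-expressed genes the median log2 shift against double-negative cells was 0.38 in the mCherry+ and 0.48 in the EGFP+ library, and the mCherry+ library stood at −0.10 against EGFP+. When this shift was removed, 32 of the 38 calls of members stayed past 4-fold. The shift was too small to reverse the direction of any call.

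The sorted libraries carried their own markers. The 6 macrophage genes all reached an FPKM of 1 in the mCherry+ library, and their summed FPKM was 2299 there, 20.4 in EGFP+ and 5.62 in double-negative cells. The sorting gene mpeg1 was at 1396 in mCherry+, 9.92 in EGFP+ and 2.84 in double-negative cells, and mpx was at 55.8 in mCherry+ and 12480 in EGFP+ cells. The 6 neutrophil genes summed to 841 in the mCherry+, 33129 in the EGFP+ and 13.6 in the double-negative library. Most of the mCherry+ sum came from csf3r (365) and ncf1 (313), which were at 659 and 718 in EGFP+ cells. The other neutrophil genes lay between 26.0 and 55.8 in mCherry+ cells. Markers of other tissues were present in all 3 libraries. In the order mCherry+, EGFP+ and double-negative, 11 erythroid genes summed to 172, 245 and 4298, and 9 liver genes to 76.9, 153 and 1899. In the same order, 8 skeletal muscle genes summed to 3830, 4984 and 2096. Among these, acta1a alone was highest in double-negative cells, at 47.4, 14.7 and 86.7. For 6 epidermal genes the sums were 771, 1350 and 3606, and for 5 neuronal genes 56.8, 83.3 and 409. For 4 gut and kidney genes they were 4.61, 6.94 and 33.1, and for 6 lens and photoreceptor genes 37.4, 433 and 246. This last sum joined genes of differing direction. The lens genes mipb, cryba4 and crybb1 were at 82.2, 112 and 132 in EGFP+ and 8.04, 11.8 and 20.9 in double-negative cells. In mCherry+ cells they were at 0.936, 2.01 and 2.80. The photoreceptor genes opn1lw2 and rho were at 97.1 and 8.71 in EGFP+ and 185 and 18.9 in double-negative cells. The lens gene cryaa was nearly level between EGFP+ and double-negative cells. Among all these markers, gap43 was listed at 0 everywhere, hbbe3 in EGFP+, slc15a1b in mCherry+ and slc13a1 in both reporter libraries. The part of these other cells in the results below was not tested, and in such pooled RNA fewer cells of a type and less RNA per cell cannot be told apart.

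Redox genes were a well-expressed group that differed between the sorted populations in both directions. Their summed FPKM made up 0.769% of all FPKM in mCherry+, 0.745% in EGFP+ and 0.490% in double-negative cells. Single genes weighed heavily in these sums. The glutathione reductase gene gsr was at 1826 of a summed 5195 in EGFP+ cells, against 22.1 of 1748 in double-negative cells. In mCherry+ cells the selenoprotein P gene sepp1a was at 969.7 and gsr at 462 of a summed 4395. Over all 58 members, sod3a included, the median FPKM was 26.5 in mCherry+, 23.1 in EGFP+ and 21.3 in double-negative cells. Over the 12285 genes that reached an FPKM of 1, a set without sod3a, it was 6.71, 6.87 and 7.41. Of the 57 members, 25 were past 4-fold in at least 1 of the 3 pairs (43.9%), where the share over all genes was 23.4%. Where some library reached an FPKM of 10, 23 of 47 members (48.9%) were past 4-fold, against 33.0% of all genes that did.

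**Figure D1:**
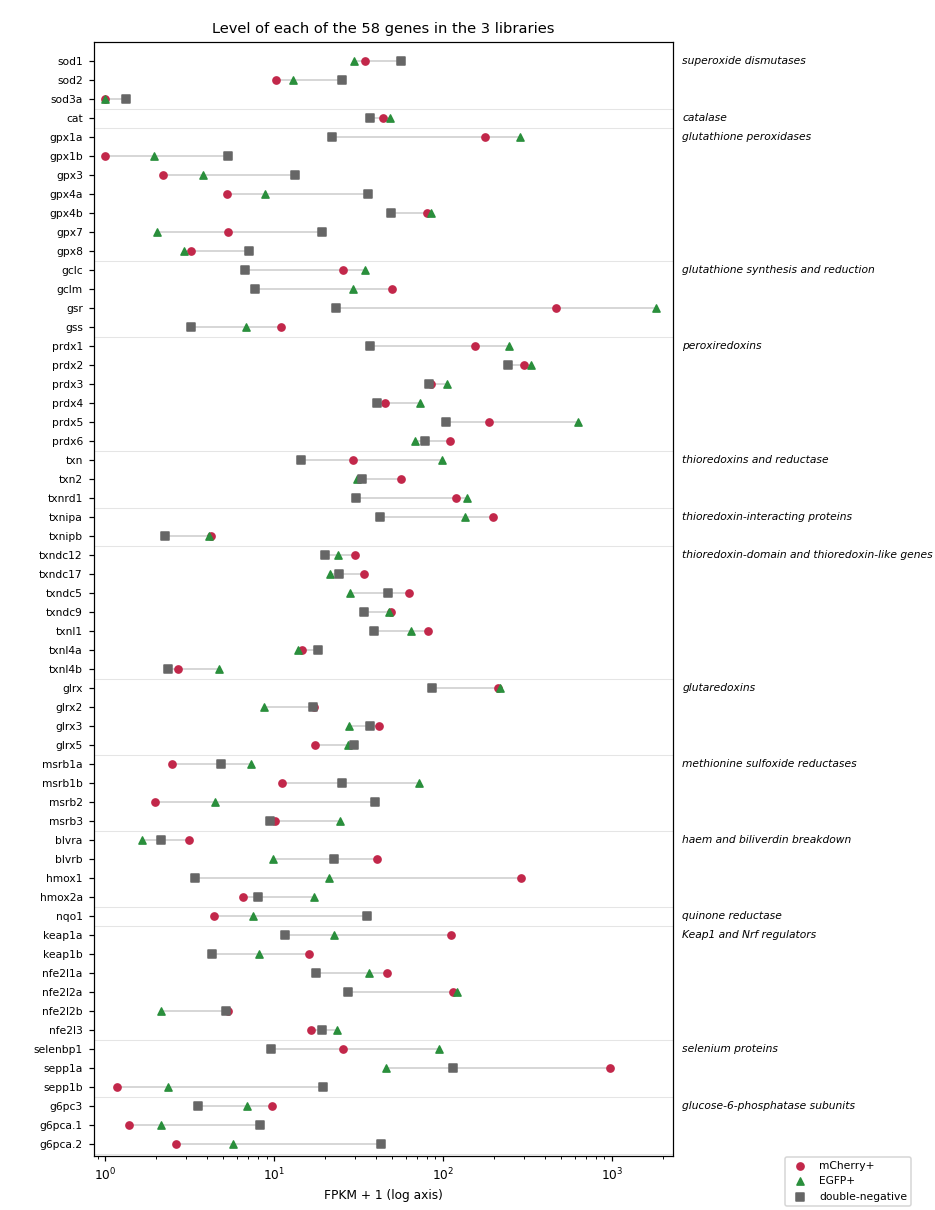
FPKM + 1 on a log axis for the 58 genes, ordered by role, in the mCherry+ (circles), EGFP+ (triangles) and double-negative (squares) libraries, 1 library each; grey lines span the 3 values. The widest spans toward the reporter libraries are those of gsr, hmox1 and sepp1a, and the low reporter values of msrb2, sepp1b, nqo1 and g6pca.2 stand out on the left.

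Among the genes of glutathione synthesis and recycling, glutathione reductase, gsr, which regenerates reduced glutathione from its disulfide, had an FPKM of 462 in the mCherry+, 1826 in the EGFP+ and 22.1 in the double-negative library. It ranked 45 among all 14428 genes of the EGFP+ library by FPKM, 196 in mCherry+ and 2298 in double-negative cells. Over double-negative cells its log2 ratio stood at 4.33 in the mCherry+ and 6.31 in the EGFP+ library, and mCherry+ over EGFP+ stood at −1.98, just short of a call. In the mCherry+ library gsr was at 25.3% of its EGFP+ level, and mpx was at 0.447% of its own. The part of neutrophil RNA in the mCherry+ value of gsr was not tested.

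The enzymes that make glutathione were also more abundant in the reporter libraries, at far lower levels than gsr. The catalytic subunit of glutamate-cysteine ligase, gclc, was at 24.6 in mCherry+, 33.6 in EGFP+ and 5.71 in double-negative cells. Its modifier subunit gclm was at 48.4 in mCherry+, 28.4 in EGFP+ and 6.65 in double-negative cells. The calls fell on gclm in mCherry+ cells (log2 ratio 2.69 over double-negative) and on gclc in EGFP+ cells (2.36), with the other gene of each pair close behind at 1.93 (gclc, mCherry+) and 1.94 (gclm, EGFP+). The gclc call ended, at 1.90, when the median shift was removed. Glutathione synthetase, gss, which completes the tripeptide, was at 9.89, 5.81 and 2.22 in mCherry+, EGFP+ and double-negative cells.

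The 7 glutathione peroxidase genes split. The selenium-dependent peroxidase gene gpx1a was at 177 in the mCherry+, 285 in the EGFP+ and 21.0 in the double-negative library, log2 ratios of 3.01 and 3.70 over double-negative. It supplied 65.9% of the summed FPKM of the family in mCherry+ cells and 74.3% in EGFP+ cells, against 14.5% in double-negative cells. Thus a single gene held most of the family's FPKM in each reporter library, while the double-negative library spread it over several.

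The 2 genes for the phospholipid hydroperoxide peroxidase went apart. The copy gpx4a was at 4.21 in mCherry+, 7.86 in EGFP+ and 34.6 in double-negative cells, lower by log2 ratios of −2.77 and −2.01. The copy gpx4b was at 79.5 in mCherry+, 84.2 in EGFP+ and 48.1 in double-negative cells; its mCherry+ over EGFP+ ratio and its EGFP+ over double-negative ratio changed sign with the scaling of the libraries. The gene whose product is secreted into plasma, gpx3, was at 1.18, 2.77 and 12.2 in mCherry+, EGFP+ and double-negative cells, a log2 ratio of −2.60 for mCherry+ over double-negative.

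Of the peroxidases of the endoplasmic reticulum, gpx7 was at 4.31 in mCherry+, 1.02 in EGFP+ and 18.3 in double-negative cells. Its log2 ratio over double-negative was −1.86 in mCherry+ cells, or −2.16 with the median shift removed, and −3.26 in EGFP+ cells. The second of them, gpx8, was at 2.21, 1.93 and 6.09 in the same order. The paralog gpx1b was listed at 0 in mCherry+ cells and was at 0.938 in EGFP+ and 4.33 in double-negative cells. Related copies may have shared reads in the authors' quantification, so the split between copies is less certain than their sum.

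**Figure D2:**
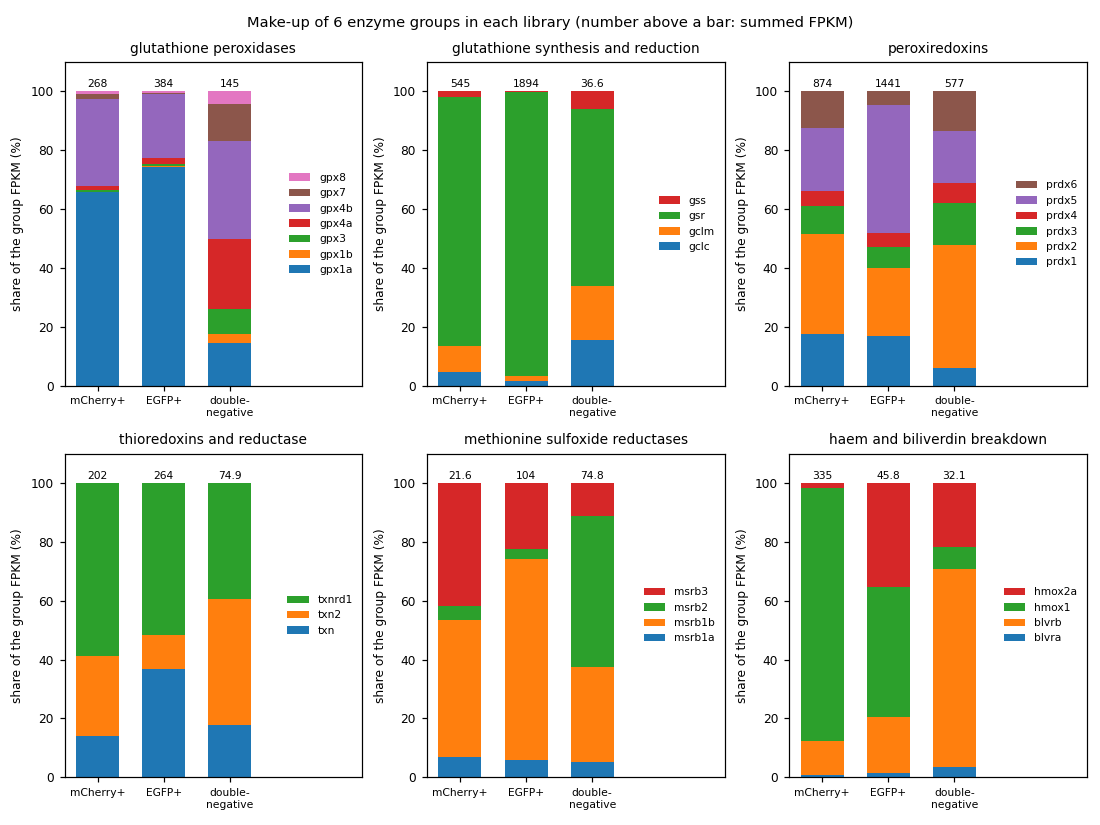
Share of the summed FPKM (percent, from 0) held by each gene in 6 enzyme groups, for the mCherry+, EGFP+ and double-negative libraries from left to right; the number above each bar is the summed FPKM. The gpx1a share is 65.9% in mCherry+, 74.3% in EGFP+ and 14.5% in double-negative cells, and hmox1 holds 86.0% of the haem group in mCherry+ cells.

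Peroxiredoxins, thiol peroxidases most of which use thioredoxin, were abundant everywhere. The 6 genes summed to 874 in the mCherry+, 1441 in the EGFP+ and 577 in the double-negative library. The mitochondrial, peroxisomal and cytosolic member prdx5 was at 185 in mCherry+, 624 in EGFP+ and 103 in double-negative cells, with a log2 ratio of 2.59 in EGFP+ over double-negative cells and −1.74 in mCherry+ over EGFP+ cells. It held 43.3% of the family's FPKM in EGFP+ cells, 21.2% in mCherry+ cells and 17.8% in double-negative cells. In the EGFP+ library prdx5 was thus the most abundant peroxiredoxin, while in both other libraries that was prdx2.

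The cytosolic peroxiredoxin gene prdx1 was at 152 in mCherry+, 245 in EGFP+ and 35.6 in double-negative cells. Its log2 ratios over double-negative were 2.06 and 2.75, and the mCherry+ call ended at 1.68 with the median shift removed. Its relative prdx2, which is a major protein of red blood cells, was at 299 in mCherry+, 329 in EGFP+ and 240.0 in double-negative cells, and the sign of all 3 ratios depended on the scaling. The remaining genes had no call, and their mCherry+ over double-negative ratios changed sign with the scaling. So did the EGFP+ over double-negative ratios of prdx3 and prdx4. Mitochondrial prdx3 was at 83.9, 104 and 81.8, prdx4 of the secretory pathway at 44.2, 71.5 and 39.3, and prdx6, which also has phospholipase activity, at 109, 67.4 and 77.4 in mCherry+, EGFP+ and double-negative cells.

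The thioredoxin system feeds most of the peroxiredoxins. Cytosolic thioredoxin, txn, was at 28.4 in mCherry+, 97.5 in EGFP+ and 13.3 in double-negative cells, with log2 ratios over double-negative of 1.03 in mCherry+ and 2.78 in EGFP+ cells. Mitochondrial txn2 was at 55.4 in mCherry+, 29.7 in EGFP+ and 32.0 in double-negative cells. The order of the pair was therefore reversed between the reporter libraries: txn exceeded txn2 in EGFP+ cells and txn2 exceeded txn in mCherry+ and double-negative cells.

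The thioredoxin reductase gene txnrd1, now txnrd3 in RefSeq, was at 119 in mCherry+, 137 in EGFP+ and 29.6 in double-negative cells. The log2 ratios over double-negative were 1.97 and 2.17, on either side of the threshold, and the EGFP+ call ended at 1.70 with the median shift removed. The inhibitor gene txnipa, whose product binds thioredoxin and restrains glucose uptake in mammals, was at 196 in mCherry+, 133 in EGFP+ and 41.4 in double-negative cells. Its log2 ratio for mCherry+ over double-negative was 2.21, or 1.83 with the shift removed. Its paralog txnipb did not exceed 3.24 in any library.

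**Figure D3:**
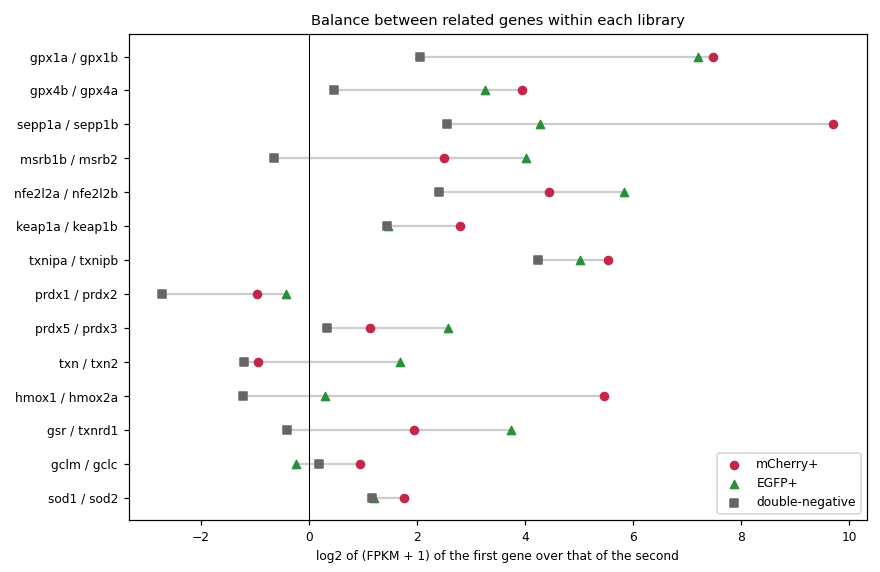
Log2 ratio of (FPKM + 1) between 2 related genes of the same library, for 14 pairs chosen after their values were seen, in mCherry+ (circles), EGFP+ (triangles) and double-negative (squares) libraries. Points right of the line mean that the first gene is higher; txn over txn2 is 1.68 in EGFP+ cells, against −0.94 in mCherry+ and −1.20 in double-negative cells.

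None of the 7 thioredoxin-domain and thioredoxin-like genes was past 4-fold in any pair. Over all genes 23.4% were past it in at least 1 pair, and a count in so small a group can lie near that share. The proteasome-associated txnl1 was at 80.2 in mCherry+, 63.5 in EGFP+ and 37.9 in double-negative cells. The disulfide isomerase gene txndc5 was at 62.0, 26.9 and 46.1 in the same order, and txndc9 at 47.9, 46.6 and 33.0. The genes txndc12 and txndc17 lay between 19.0 and 32.7 in all 3 libraries. The last 2 of the group, txnl4a (12.9 to 17.1) and txnl4b (1.36 to 3.70), encode spliceosome components and not redox enzymes.

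Glutaredoxins, which use glutathione to reduce disulfides, had no call either, beside 23.4% of all genes called in at least 1 pair. The cytosolic glrx was the highest, at 210.3 in mCherry+, 215 in EGFP+ and 85.1 in double-negative cells, with log2 ratios of 1.30 and 1.33 over double-negative. The genes glrx3 and glrx5, which serve iron-sulfur cluster and iron handling, were at 40.6 and 16.4 in mCherry+, 26.7 and 26.3 in EGFP+, and 35.7 and 28.8 in double-negative cells. The mitochondrial glrx2 was at 16.3 in mCherry+, 7.73 in EGFP+ and 15.9 in double-negative cells.

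Methionine sulfoxide reductases repair oxidized methionine, and here 2 of the 4 genes were called. Over all genes 23.4% were called in at least 1 pair, and a count among so few genes can lie near that share. The mitochondrial enzyme gene msrb2 was at 0.977 in mCherry+, 3.43 in EGFP+ and 38.3 in double-negative cells, log2 ratios of −4.31 and −3.15. The selenoprotein gene msrb1b, whose mammalian counterpart acts on oxidized actin, was at 10.1 in mCherry+, 70.7 in EGFP+ and 24.1 in double-negative cells. Its log2 ratio of −2.69 for mCherry+ over EGFP+ was the only call below EGFP+ among the members. The other 2 genes were also lower in mCherry+ than in EGFP+ cells without reaching 4-fold, with msrb3 at 9.08, 23.4 and 8.47 and msrb1a at 1.47, 6.27 and 3.86 in mCherry+, EGFP+ and double-negative cells.

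The superoxide dismutases and catalase, the classical antioxidant enzymes, were not called in any pair. Over all genes 23.4% were called in at least 1 pair, so a lack of calls in a few genes says little. Cytosolic sod1 was at 33.7 in mCherry+, 28.6 in EGFP+ and 55.5 in double-negative cells. Mitochondrial sod2 was at 9.29 in mCherry+, 11.9 in EGFP+ and 24.2 in double-negative cells. Both were lower in the reporter libraries under every scaling, by log2 ratios between −1.29 and −0.71 as deposited. Catalase, cat, was at 43.0 in mCherry+, 47.1 in EGFP+ and 36.1 in double-negative cells, but the sign of its ratios depended on the scaling.

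The genes of haem breakdown included 2 called between the reporter populations, hmox1 and blvrb. Over all genes, 3.90% were called higher and 3.34% lower in mCherry+ over EGFP+ cells. Haem oxygenase hmox1, the inducible enzyme that opens haem and releases iron, was at 288 in mCherry+, 20.2 in EGFP+ and 2.41 in double-negative cells. Its log2 ratio for mCherry+ over double-negative was 6.40, rank 59 among all 12285 genes, and for mCherry+ over EGFP+ it was 3.77, rank 122. The EGFP+ library also exceeded the double-negative one, by 2.63. A second haem oxygenase gene, hmox2a, was at 5.56 in mCherry+, 16.2 in EGFP+ and 6.97 in double-negative cells and had no call.

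Biliverdin reductases reduce forms of biliverdin, a pigment made from haem. The gene blvrb was at 39.3 in mCherry+, 8.77 in EGFP+ and 21.6 in double-negative cells, a log2 ratio of 2.05 for mCherry+ over EGFP+ and just past the threshold. Its relative blvra was at 2.12, 0.646 and 1.13 in the same order. The 11 erythroid markers, whose cells are rich in haem, had summed FPKM of 172 in mCherry+, 245 in EGFP+ and 4298 in double-negative cells, and their part in these values was not tested.

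Beside 3.90% of all genes called higher and 3.34% lower in mCherry+ over EGFP+ cells, 1 of the 3 selenium transport and binding genes was called. That one, the selenoprotein P gene sepp1a, whose product carries selenium between cells in the form of selenocysteine, was at 969.7 in mCherry+, 44.7 in EGFP+ and 113 in double-negative cells. It was rank 79 of all genes in the mCherry+ library by FPKM. Its log2 ratio of 4.41 for mCherry+ over EGFP+ was the highest of the members, and over double-negative it was 3.09.

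The paralog sepp1b had the opposite pattern, at 0.165 in mCherry+, 1.36 in EGFP+ and 18.4 in double-negative cells. Its log2 ratios over double-negative were −4.05 and −3.04. The selenium-binding protein gene selenbp1 was at 24.7 in mCherry+, 93.9 in EGFP+ and 8.53 in double-negative cells, with a log2 ratio of 3.32 for EGFP+ over double-negative. The 3 selenium genes thus each peaked in a different library.

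The regulators of the pathway were measured too. The Nrf2 gene nfe2l2a was at 114 in mCherry+, 120.4 in EGFP+ and 26.5 in double-negative cells, log2 ratios of 2.07 and 2.14 that became 1.69 and 1.67 with the median shift removed. The Nrf2 inhibitor gene keap1a was at 110.2 in mCherry+, 21.5 in EGFP+ and 10.6 in double-negative cells. The mCherry+ library was the high one for keap1a, with log2 ratios of 3.27 over double-negative and 2.30 over EGFP+. Its paralog keap1b followed the same order of libraries at 15.1, 7.16 and 3.26.

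The other nfe2l genes had no call. The proteasome regulator gene nfe2l1a was at 45.5 in mCherry+, 35.4 in EGFP+ and 16.7 in double-negative cells, nfe2l3 at 15.4, 22.4 and 18.2, and nfe2l2b at 4.33, 1.13 and 4.19. The quinone reductase nqo1, a much used Nrf2 target in mammals, had the opposite direction to nfe2l2a. It was at 3.39 in mCherry+, 6.48 in EGFP+ and 34.6 in double-negative cells, log2 ratios of −3.02 and −2.25.

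Not every gene that matched the name pattern is a redox enzyme. The g6pc genes encode catalytic subunits of glucose-6-phosphatase, which releases free glucose. The copies g6pca.1 and g6pca.2, of the form active in liver, were at 0.377 and 1.63 in mCherry+, 1.13 and 4.68 in EGFP+, and 7.27 and 41.7 in double-negative cells. These near copies may share reads. The 9 liver markers were lower in both reporter libraries too, and their part in the values of g6pca.1, g6pca.2 and sepp1b was not tested. The broadly expressed form g6pc3, whose loss in humans causes low neutrophil numbers, was at 8.75 in mCherry+, 5.86 in EGFP+ and 2.52 in double-negative cells.

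Over all members, the mCherry+ library was higher than double-negative cells by 4-fold or more for 9 of 57 genes (15.8%, against 8.18% of all genes) and lower for 8 (14.0%, against 7.36%). The higher genes were gsr, gclm, gpx1a, prdx1, txnipa, hmox1, keap1a, nfe2l2a and sepp1a. The lower genes were gpx1b, gpx3, gpx4a, msrb2, nqo1, sepp1b, g6pca.1 and g6pca.2. The median log2 ratio of the members was 0.49, against −0.04 over all 12285 genes. It became 0.11 after median-ratio scaling and −0.18 with the libraries rescaled to the same FPKM sum, against −0.35 and −0.62 over all genes. The sign of this ratio depended on the scaling for 14 of the 58 members. Median-ratio scaling gave 6 higher and 9 lower members, so the share of higher calls was 40.0% in place of 52.9%. No count of calls over all genes under this scaling is given here. The median of all genes fell too, so these counts do not set the members apart.

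The EGFP+ library was at least 4-fold above double-negative cells for 10 members (17.5%, against 8.53% of all genes) and below for 6 (10.5%, against 5.38%). The higher genes were gsr, gclc, gpx1a, prdx1, prdx5, txn, txnrd1, hmox1, nfe2l2a and selenbp1, and the lower were gpx4a, gpx7, msrb2, nqo1, sepp1b and g6pca.2. The median was 0.45, against −0.05 over all genes. It became −0.03 after median-ratio scaling and −0.51 at the same FPKM sum, against −0.42 and −0.84 over all genes. The sign depended on the scaling for 10 of the 58 members. Median-ratio scaling gave 7 higher and 8 lower (46.7% higher in place of 62.5%). Rescaling to the same FPKM sum gave 3 higher, gsr, gpx1a and selenbp1, and 12 lower (20.0%). For these scalings too, no count of calls over all genes is given here, and the median of all genes fell. Both reporter libraries were set against the same double-negative library, so these 2 comparisons share its values.

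Between the reporter populations, mCherry+ cells were at least 4-fold higher for hmox1, sepp1a, keap1a and blvrb (4 of 57, 7.02%, against 3.90% of all genes) and lower for msrb1b alone (1.75%, against 3.34%). The median member stood at −0.08, as did the median of all genes. In mCherry+ cells hmox1, sepp1a and keap1a exceeded each of the other libraries by 4-fold or more (3 members, 5.26%, against 2.60% of all genes). There was no such member for EGFP+ cells, where 2.29% of all genes had that pattern. None of the 10 members called higher there over double-negative was 4-fold above mCherry+ cells. Of these, hmox1 was instead called higher in mCherry+ over EGFP+ cells. Double-negative cells had 5 members at least 4-fold above each of the other libraries, namely gpx4a, msrb2, nqo1, sepp1b and g6pca.2 (8.77%, against 3.24%).

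A 2-fold threshold gave the following counts. The mCherry+ library was then higher than double-negative cells for 19 members (33.3%, against 19.9% of all genes) and lower for 12 (21.1%, against 24.1%). The EGFP+ library was higher for 18 (31.6%, against 21.2%) and lower for 13 (22.8%, against 25.0%). Over EGFP+ cells, the mCherry+ library was higher for 7 (12.3%, against 12.0%) and lower for 11 (19.3%, against 13.3%).

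**Figure D4:**
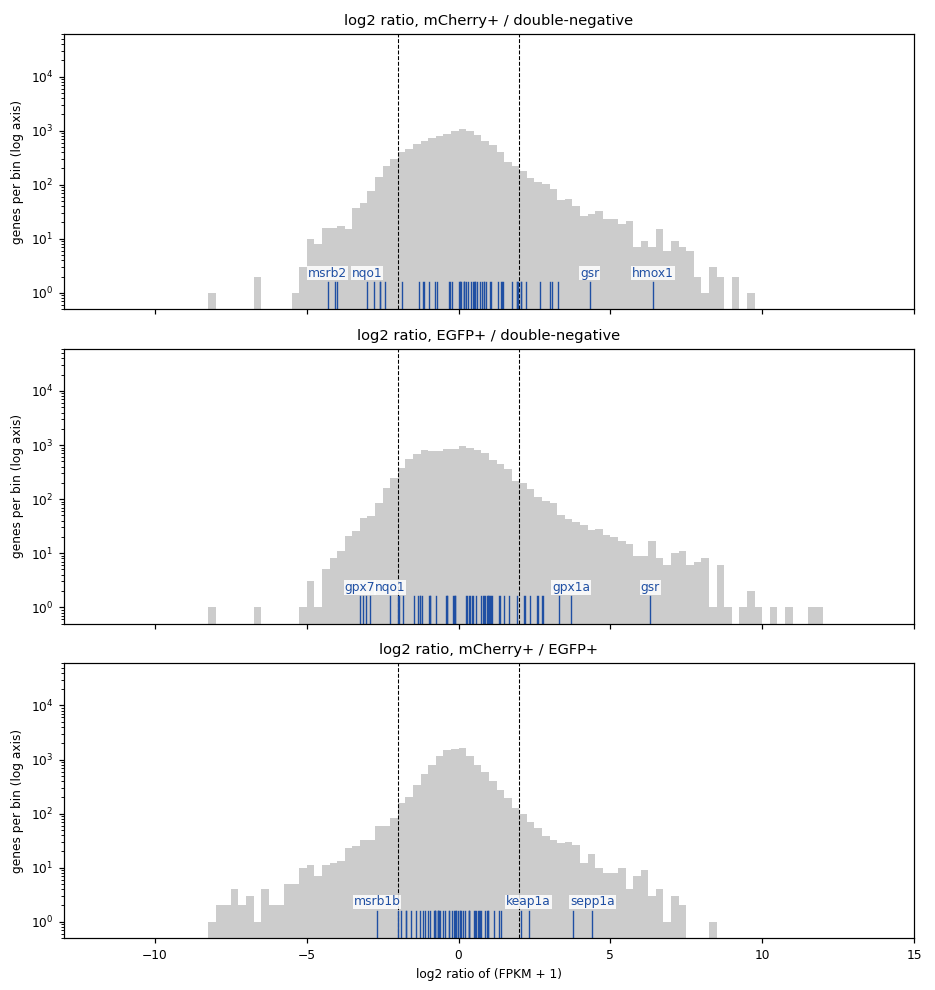
Histograms of the log2 ratio of (FPKM + 1) over 12285 genes (grey, number of genes per bin on a log axis), with the mCherry+ and then the EGFP+ library over double-negative and last mCherry+ over EGFP+, with each of the 57 members as a blue tick and dashed lines at 4-fold. The tick of hmox1 stands at 6.40 in the first panel, that of gsr at 6.31 in the second and that of sepp1a at 4.41 in the third.

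Genes of the same pathways outside the name pattern were counted from 7 lists. Over all 12285 genes, 8.18% were called higher and 7.36% lower in mCherry+ over double-negative cells. The shares were 8.53% and 5.38% for EGFP+ over double-negative, and 3.90% and 3.34% for mCherry+ over EGFP+. Small counts on a list can lie near these shares, and no list was tested against them. Of 14 measured genes for NADPH supply, 5 were called higher in mCherry+ and 6 in EGFP+ cells over double-negative, and none lower, with medians of 1.05 and 0.84; rescaling to the same FPKM sum turned the EGFP+ median to −0.03. The NAD kinase gene nadka was at 403 in mCherry+, 731 in EGFP+ and 28.8 in double-negative cells. The pentose phosphate gene pgd was at 184, 781 and 24.1, and the malic enzyme gene me1 at 38.4, 12.5 and 0.803, in the same order. The folate enzyme gene aldh1l1 was at 21.1, 18.6 and 28.4. Between the reporter populations 1 gene of this list was called higher and 2 lower in mCherry+ cells, namely me2 (30.1 against 6.22) above and pgd and tkt (213 against 1257) below EGFP+ cells.

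Of 17 measured Nrf2 partners and classical targets outside the name pattern, 6 were called higher and 1 lower over double-negative in mCherry+ cells, and 2 higher and none lower in EGFP+ cells, with medians of 0.41 and 0.59 that became −0.24 and −0.29 at the same FPKM sum. The Nrf2 competitor bach1, which represses hmox1 in mammals, was at 651 in mCherry+, 125 in EGFP+ and 13.0 in double-negative cells. The autophagy receptor gene sqstm1, whose product binds Keap1, was at 1384, 215 and 95.4. Both were also called higher in mCherry+ over EGFP+ cells, with mafk the third. The call below double-negative was abcc2, a transporter gene with low values. This list overlapped others. It shared me1, called higher over double-negative in both reporter libraries, with NADPH supply. With glutathione conjugation it shared gstp1 and gstp2, which had no call. Among genes reaching an FPKM of 10 the glutathione transferase gene gstp2 had the lowest ratios over double-negative, at 3.13, 6.31 and 12.1 in the same order.

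Glutathione conjugation and turnover gave 4 higher and 1 lower of 30 in mCherry+ cells over double-negative, and 5 higher and 2 lower in EGFP+ cells (medians 0.05 and 0.12, which median-ratio scaling turned to −0.31 and −0.24). The gamma-glutamyltransferase gene ggt1a was at 57.7 in mCherry+, 2.86 in EGFP+ and 0.573 in double-negative cells. The amino acid transporter chain gene slc3a2a was at 356 in mCherry+, 5.49 in EGFP+ and 12.4 in double-negative cells. The omega-class transferase gene gsto2 was instead highest in EGFP+ cells, at 49.6, 249 and 6.40. These 3 genes carried all the calls of the list between the reporter populations, 2 higher and 1 lower in mCherry+ cells. At the low end, mgst3 was at 11.1 in mCherry+, 16.5 in EGFP+ and 42.3 in double-negative cells.

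Among 23 measured genes for other selenoproteins and selenocysteine insertion, none was called higher and 3 lower in mCherry+ cells, and 1 higher and 2 lower in EGFP+ cells, over double-negative (medians 0.07 and 0.82, or −0.58 and −0.10 at the same FPKM sum). The selenoprotein W gene sepw1 was at 121 in mCherry+, 1649 in EGFP+ and 103 in double-negative cells and was the only call between the reporter populations. Its relative sepw2b was at 4.75, 6.36 and 31.8. Of 18 genes for thiol oxidation in the endoplasmic reticulum, 3 were higher and 1 lower in each reporter library, among the higher ones tmx1 at 32.8, 75.7 and 6.80, with medians of 0.59 and 0.55 that became −0.09 and −0.40 at the same FPKM sum. Between the reporter populations pdia5 was called higher and pdia2 lower in mCherry+ cells.

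Of 17 other oxidant defence genes, 2 were called higher in mCherry+ cells and 1 lower in EGFP+ cells over double-negative (medians 0.19 and 0.35, or −0.17 and −0.10 after median-ratio scaling). The metallothionein gene mt2 was at 377 in mCherry+, 20.1 in EGFP+ and 15.5 in double-negative cells, and the copper chaperone gene atox1 at 82.5, 33.4 and 19.3. The log2 ratio of atox1 for mCherry+ over double-negative, 2.04, was just past the threshold. Between the reporter populations mt2 alone was called, higher in mCherry+ cells. The oxidant producers had the highest median over double-negative of the 7 lists. Of 8 NADPH oxidase and peroxidase genes, 7 were called higher in each reporter library, with median log2 ratios of 5.54 for mCherry+ and 7.14 for EGFP+ over double-negative. For example, ncf1, which is also on the neutrophil marker list, was at 313 in mCherry+, 718 in EGFP+ and 0.975 in double-negative cells. The 7 called genes include mpx, whose promoter drove the EGFP used for sorting, so its EGFP+ call followed from the sort.

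**Figure D5:**
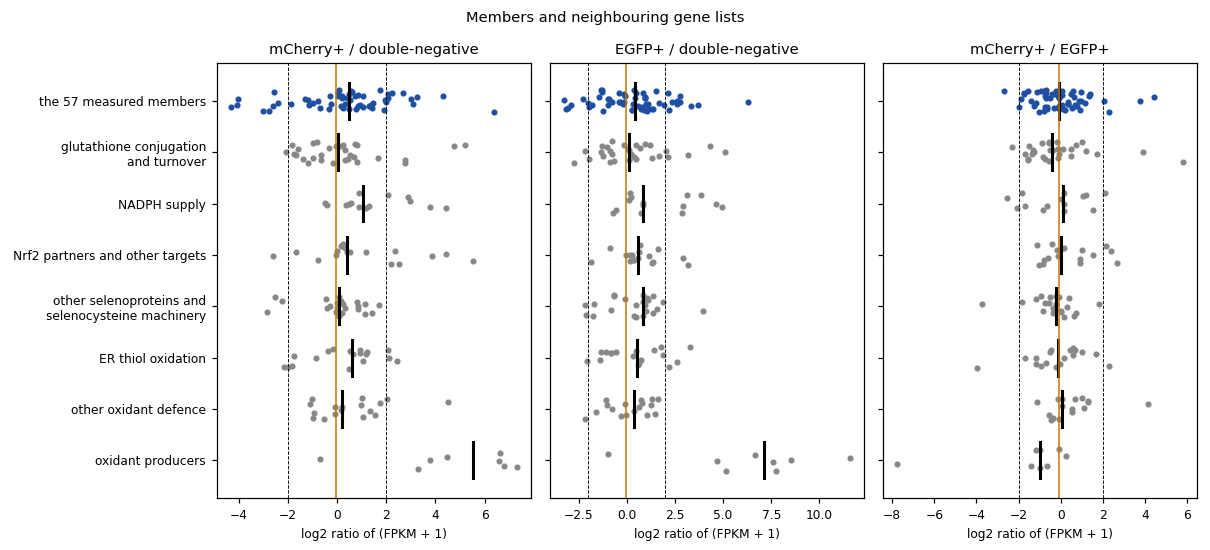
Log2 ratios of (FPKM + 1) for the 57 measured members (blue) and for the measured genes of 7 neighbouring lists (grey), with vertical jitter, in the 3 comparisons; black bars are list medians, the orange line is the median of all 12285 genes and dashed lines mark 4-fold. The oxidant producers, which include the sorting gene mpx, have the highest list medians, 5.54 and 7.14 over double-negative. The members lie on both sides of 0.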

How the data were processed

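RNA was sequenced from 3 sorted cell populations, 1 library each. Per the labels' protocols, total RNA was depleted of ribosomal RNA and made into libraries with a low-input SMARTer kit. The build was danRer7 and the tools were Cufflinks 2.2.1, TopHat2 2.0.11 and cutadapt, per the submitters' processing notes. For tool settings and gene models: not given in the sources used here. FPKM per gene and library came as 1 table that the authors deposited. Whole-read steps were searched for among 81 to 143 low genes per pair, and at most 4.65% shared a ratio within 0.5%, so depth is unknown and no counting interval is given. Log2 ratios used a pseudocount of 1 and an FPKM of 1 or more in some library, computed with Python 3.11.15, pandas 2.3.3 and NumPy 2.4.6; the steps were tested on simulated data.

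Members with an FPKM of 10 or more, or called with at least 5, were described with values; from other lists up to 2 highest and 2 lowest genes per comparison could be named, and mpeg1 and mpx entered the sort check. Genes named outside this were psmd7, abcc2, gstp1, markers listed at 0 and the members below those limits. The neutrophil markers csf3r and ncf1, the muscle marker acta1a and the lens and photoreceptor markers were also named outside it. The members, lists and thresholds were chosen with earlier results of these data known. All 58 members matched RefSeq names of GRCz12tu, used for names only; that assembly gives txn and txnrd1 as older names of txnb and txnrd3. Other pseudocounts, scalings, filters and thresholds were tried.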

Additional observations from a re-analysis of the deposited data

How the results depend on the processing

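No paired analysis was possible because each group has 1 library, and for the same reason no library could be left out. Of the 38 member ratios past 4-fold, 25 stayed so with a pseudocount of 5, 32 after median-ratio scaling and 28 at the same FPKM sum. A pseudocount of 0.1 kept all 38, because a smaller pseudocount can only widen a ratio. Dropping the filter altered no member ratio. Their direction could not change, because a pseudocount leaves the sign of a ratio alone and both scaling shifts were smaller than 4-fold. The counts of called members that moved by over 1.5 times were as follows. Among these settings, only the 2-fold threshold has shares of all genes per comparison, given above. With a pseudocount of 0.1, mCherry+ over EGFP+ had 4 lower members in place of 1. With a pseudocount of 5, 5 members in place of 8 were lower in mCherry+ and 2 in place of 6 in EGFP+ cells over double-negative. At the same FPKM sum, EGFP+ over double-negative had 3 higher in place of 10 and 12 lower in place of 6. At a 2-fold threshold, mCherry+ over double-negative had 19 higher. EGFP+ over double-negative then had 18 higher and 13 lower, and mCherry+ over EGFP+ 7 higher and 11 lower. Smaller shifts came from a minimum FPKM of 10, which left 6 lower members in mCherry+ cells over double-negative, and from leaving out the 5 glucose-6-phosphatase and spliceosome genes, a choice made after seeing the data, which left 6 lower in mCherry+ and 5 in EGFP+ cells. With unknown depth, values near an FPKM of 1 are the least certain.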
